A study of Mus musculus with 16 samples.

Results

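The enzymes that remove superoxide and peroxides from the cell were followed in haematopoietic stem cells (HSCs): the peroxiredoxins Prdx1, Prdx2, Prdx3, Prdx5 and Prdx6, the glutathione peroxidases Gpx1 and Gpx4, the superoxide dismutases Sod1 and Sod2, and catalase (Cat). These 10 genes, of 46078 genes in the count table, were chosen by family, with earlier results of these data known. No member passed the false discovery rate of 0.1 in any comparison by edgeR with the main settings, while Prdx2 passed under some alternatives given below. Among the pairwise comparisons the smallest p was that of Prdx2, which was 2.26-fold lower in central HSCs labelled Gfra2-/- than in central WT HSCs (log2 fold change -1.18, SE 0.34, edgeR's quasi-likelihood test, adjusted p = 0.318 by Benjamini-Hochberg over all genes tested; DESeq2, adjusted p = 0.0949). Its p was smaller with the genotypes averaged over compartments (edgeR, adjusted p = 0.122; DESeq2, adjusted p = 0.0114). The members with the highest levels per kilobase, Gpx1 and Prdx6, were also among the 3 that varied least between libraries.

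Each library was made by the Smart-seq2 protocol from a pool of 30 HSCs, sorted as LSK CD48-CD150+ cells from the long bones of untreated mice on the C57/Bl6 background. Endosteal HSCs came from the bone fraction and central HSCs from the marrow fraction, and the genotype was either Gfra2 WT or Gfra2 knockout (Gfra2-/-). There were 4 WT endosteal, 4 WT central, 4 Gfra2-/- endosteal and 3 Gfra2-/- central libraries, named A to D in the order of the columns. Gfra2 encodes GFRα2, a receptor for the neurotrophic factor neurturin, and the mice were used because they lack cholinergic nerve fibres. No Cre driver is named, ages are not given in the labels, and the labels do not tie the libraries of a group to separate mice. The study calls them biological replicates in a legend, while its methods speak of 4 replicates per sample and of 3 sequenced per condition. Whether endosteal and central pools came from the same mice is not given either. The p-values measure the spread between these samples and take them as independent.

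Superoxide is a by-product of respiration and of NADPH oxidases. Superoxide dismutases turn it into hydrogen peroxide, which catalase splits in peroxisomes and which peroxiredoxins and glutathione peroxidases reduce at a cysteine or selenocysteine, drawing electrons from thioredoxin or glutathione. Quiescent HSCs are known for low levels of reactive oxygen species, and a rise in these is associated with their leaving quiescence.

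The catalytic selenocysteine of Gpx1 and Gpx4 is written in the transcript as TGA, which elsewhere ends a protein. A TGA in frame and before the final stop was found in these 2 coding sequences (GENCODE M21, GRCm38) and in none of the other 8, at codon 47 of Gpx1 and codon 129 of the Gpx4 transcript searched. The lines show it in capitals, read 5′ to 3′.
Gpx1: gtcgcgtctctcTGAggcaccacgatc
Gpx4: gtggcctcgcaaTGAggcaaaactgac
The same glycine codon, ggc, follows the TGA in both.

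Many genes of this kind carry an antioxidant response element, the site of the factor NRF2, in their promoters. Its core, spelled TGACNNNGC, was searched on both strands of the window from 250 bases before to 50 bases after the RefSeq start (GRCm38.p6), for 9 members, since Prdx6 has no entry. Prdx1 and Sod1 held a match, 2 of 9, beside 12.4% of all 32851 promoters, or 14% of 27025 genes. Whether these shares differ was not tested. In the lines, read along the gene's strand, the capitals are the reverse complement of the core, so both matches lie on the opposite strand.
Prdx1, chr4:116685456-116685484: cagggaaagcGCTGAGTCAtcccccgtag
Sod1, chr16:90220696-90220724: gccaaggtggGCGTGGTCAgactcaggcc
The Prdx1 match starts 133 bases and the Sod1 match 56 bases before the RefSeq start, which differs from the start of the GENCODE position given below. Within the Prdx1 match lies TGAGTCA, which is also the site of AP-1 factors.

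Reads on genes numbered 826487 to 3367289 in the WT central libraries and 4416648 to 18550008 in the other 11, so each WT central library was shallower than every library it was compared with. In 4 libraries, 1 in each group (WT endosteal D, WT central D, Gfra2-/- endosteal D and Gfra2-/- central C), spike-in RNAs took under 0.5% of reads. The ratio within the other libraries and that in the pair poor in spike-in RNA had opposite signs for 6 of the 10 members between WT compartments, 6 between Gfra2-/- compartments, 3 between the genotypes in central HSCs and 4 in endosteal HSCs. WT central A and C fell below the study's quality cut-offs. The 7 HSC markers, including the sorting genes Kit, Ly6a and Slamf1, were present in every library, and summed to 1251 to 2229 CPM (a gene's counts divided by the library's total after TMM scaling). Summed erythroid markers were 27.1 to 143 CPM in 14 libraries and 680.3 CPM in Gfra2-/- endosteal D, which also had the most B-cell marker RNA (1799 CPM). Summed neutrophil and myeloid markers were at 325 to 762 CPM in 12 libraries, and at 3784 CPM in WT central D, 2447 CPM in WT central C, of which Lyz2 made up 2438 CPM, and 1364 CPM in Gfra2-/- central C. Summed megakaryocyte markers were highest in Gfra2-/- endosteal A, at 620.2 CPM. Gfra2 had 0, 0, 0 and 1 counts in WT endosteal and 0, 0, 4 and 0 in WT central libraries. In Gfra2-/- endosteal libraries it had 2, 47, 1 and 9 counts and in Gfra2-/- central libraries 0, 1 and 0. Gfra2-/- endosteal B and D, with more counts than any WT library, are called below the libraries whose Gfra2 counts go against the label. For its depth D (11985523 reads on genes) held fewer than WT central C (826487). With WT libraries at 0 to 4 counts, Gfra2 RNA cannot tell the genotype of a library. Gfra2-/- names below refer to libraries so labelled.

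Per kilobase of exon, averaged over 15 libraries, Gpx1 stood at 701 ± 175 CPM (SD), followed by Prdx6 at 156 ± 30.1, Prdx2 at 115 ± 51.5 and Prdx3 at 81.4 ± 52.1 CPM. Sod1, Cat, Prdx5 and Prdx1 followed with 78.1, 77.4, 63.4 and 63.3 CPM per kilobase, means that differed by less than their SDs. Gpx4 and Sod2 were lowest with 19.7 ± 9.89 and 11.8 ± 3.23 CPM per kilobase. The order below the first 2 depends on the length used: with coding length in place of all exons only 2 members, Gpx1 and Prdx6, held their rank. In CPM not divided by length the coefficient of variation over the 15 libraries was smallest for Prdx6 (19.3%), Gpx1 (25%) and Sod2 (27.3%), and largest for Prdx5 (62%), Prdx3 (64%) and Cat (65.6%). The 10 members together took 0.369% ± 0.0488 of gene reads in WT endosteal, 0.304% ± 0.0473 in WT central, 0.310% ± 0.0378 in Gfra2-/- endosteal and 0.295% ± 0.0271 in Gfra2-/- central HSCs (SD, n = 4, 4, 4 and 3). In pools of cells like these, fewer cells that express a gene and less RNA per cell cannot be told apart.

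**Figure D1:**
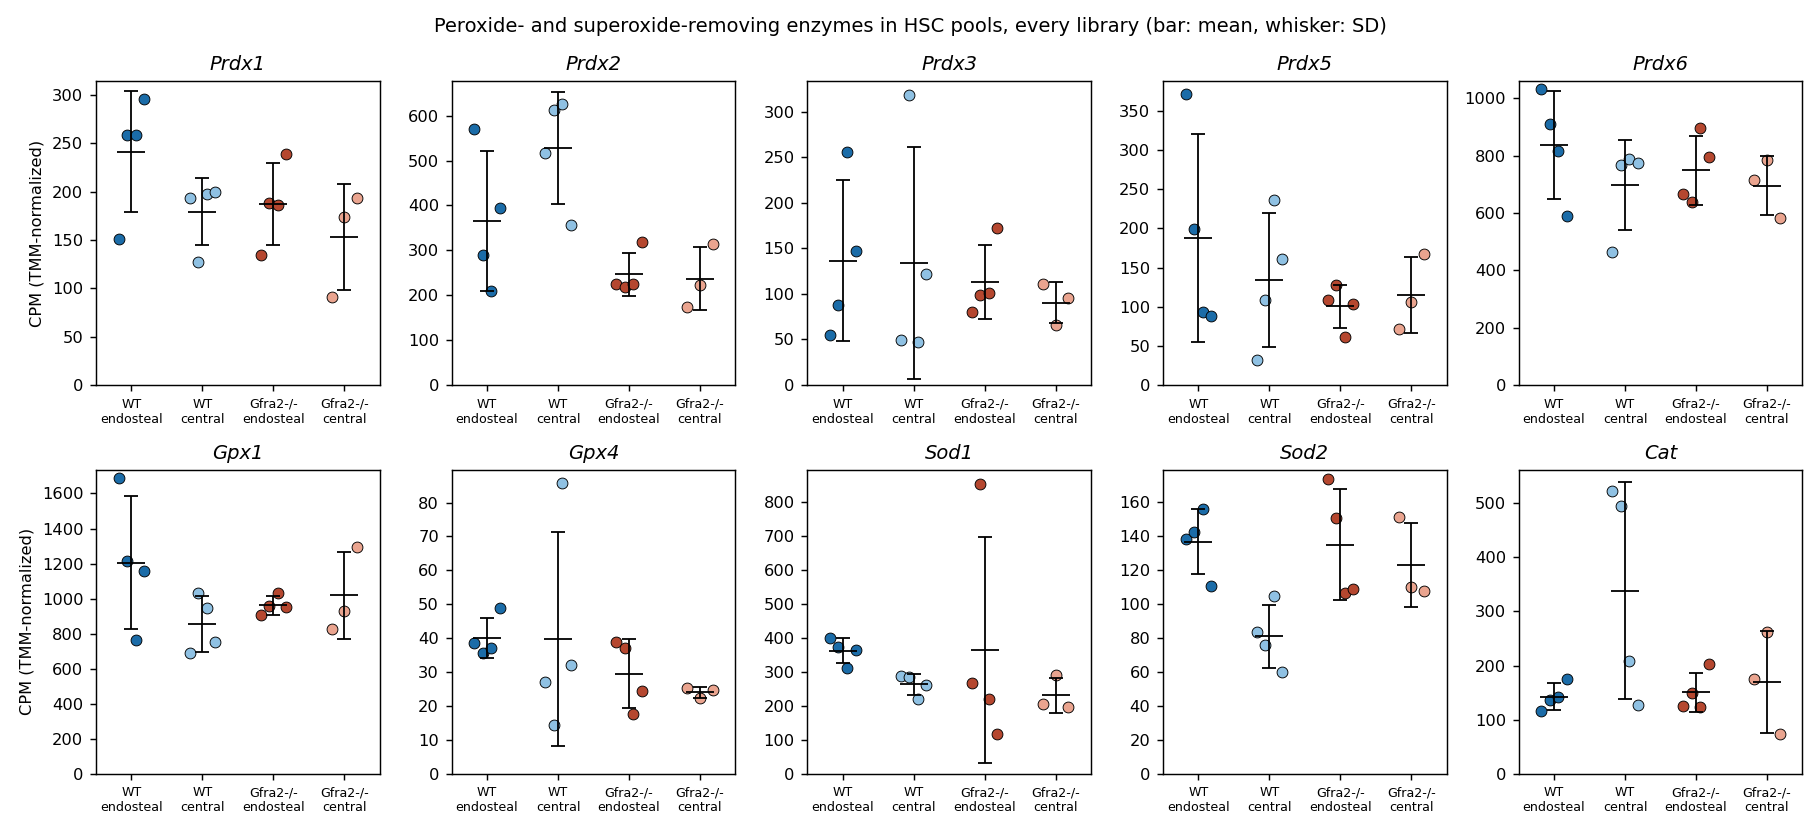
Level of each member in CPM (y axis, linear, from 0) in the 15 libraries, by group (x axis). Each point is 1 library, the horizontal bar the group mean and the whisker 1 SD. Prdx2 in Gfra2-/- central HSCs lies below all 4 WT central libraries, Cat is high in 2 WT central libraries, and Sod1 is far above the rest in 1 Gfra2-/- endosteal library.

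Sod1 encodes the cytosolic copper and zinc superoxide dismutase (ENSMUSG00000022982, chr16:90220754-90226329, plus strand). Sod1 was at 399, 372, 311 and 363 CPM in WT endosteal HSCs (361 ± 36.6, SD, n = 4) and at 287, 285, 219.9 and 261 CPM in WT central HSCs (263 ± 31.3, n = 4). All 4 WT endosteal values lay above all 4 WT central values, with a difference of 0.44 on the log2 scale (SE 0.27, edgeR, adjusted p = 0.708). It was 0.45 within the libraries rich in spike-in RNA and 0.48 between the single pair poor in it. Gfra2-/- endosteal libraries held 267, 854, 219.5 and 118 CPM of Sod1 (365 ± 332, n = 4) and Gfra2-/- central libraries 205, 291 and 195 CPM (231 ± 52.6, n = 3). The 854 CPM of library B, whose Gfra2 counts go against its label, carried the difference between these compartments, which was 0.66 (SE 0.60) on the log2 scale with it and -0.19 without it. It was 0.85 within the libraries rich in spike-in RNA and -0.72 in the pair poor in it. Between the genotypes Sod1 differed by less than its SE in either compartment, with ratios of 0.31 and -1.61 in endosteal HSCs within the libraries rich and poor in spike-in RNA.

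Sod1 shares sequence with the processed pseudogene Gm8566: 23.1% of the 50-base windows of its transcript occur there too. Gm8566 took 23.1% to 32.7% of the counts of both genes together, and in Gfra2-/- endosteal B it reached 8122 counts. Over the 15 libraries Gm8566 was also the gene whose log2(CPM + 1) followed that of Sod1 most closely (Pearson r = 0.967, among 15416 genes), which describes a pair that can exchange reads. With its counts added to Sod1 the WT difference between compartments was 0.49.

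Sod2 encodes the manganese superoxide dismutase of mitochondria (ENSMUSG00000006818, chr17:13006846-13040063, plus strand). Sod2 was at 138, 142, 155 and 111 CPM in WT endosteal HSCs (137 ± 18.9, n = 4) and at 83.3, 75.9, 105 and 59.7 CPM in WT central HSCs (80.8 ± 18.6, n = 4). Here too the WT groups did not overlap, and the endosteal level was 1.67-fold higher (log2 fold change 0.74, SE 0.41, edgeR, adjusted p = 0.671). Within the libraries rich in spike-in RNA the ratio was 0.72 on the log2 scale, and in the pair poor in it 0.88. It was 173, 151, 106 and 109 CPM in Gfra2-/- endosteal (135 ± 32.7, n = 4) and 151, 109.8 and 107 CPM in Gfra2-/- central HSCs (123 ± 24.7, n = 3), groups that overlapped. WT central HSCs were thus the group with the lowest Sod2, and each Gfra2-/- central library lay above them (0.58, SE 0.47, edgeR, adjusted p = 0.802), with ratios of 0.56 and 0.84 on the log2 scale within the libraries rich and poor in spike-in RNA. The closest values of these 2 groups, 107 and 105 CPM, were nearly equal, and both differences of Sod2 rest on the same WT central libraries. Sod2 differed by less than its SE between the genotypes in endosteal HSCs (95% interval of the log2 difference -0.64 to 0.60).

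Cat encodes catalase, the haem enzyme of peroxisomes (ENSMUSG00000027187, chr2:103453849-103485160, minus strand). Cat was at 117, 136, 142 and 176 CPM in WT endosteal HSCs (143 ± 24.6, n = 4) and at 523, 495, 208 and 126 CPM in WT central HSCs (338 ± 200.5, n = 4). The WT central libraries were spread over a wide range, with A and B high and D within the endosteal range. The endosteal level was 2.40-fold lower (log2 fold change -1.26, SE 0.44, edgeR, adjusted p = 0.508), and it was the member with the smallest p between WT compartments. With spike-in scaling the difference was 1.29 (SE 1.55) as fitted, where the median over all genes was 1.58, and -0.29 relative to that median. Within the libraries rich in spike-in RNA the ratio was -1.63 on the log2 scale, while in the single pair poor in it, which includes the library with the most neutrophil and myeloid marker RNA, it was 0.47. The part of either in the difference was not tested.

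Gfra2-/- endosteal libraries held 125, 149, 124 and 202 CPM of Cat (150.1 ± 36.5, n = 4) and Gfra2-/- central libraries 175, 262 and 73.3 CPM (169.9 ± 94.3, n = 3). These groups overlapped, and the difference between them was smaller than its SE. Against WT central HSCs, the Gfra2-/- central level differed by -1.02 (SE 0.56, edgeR, adjusted p = 0.648). Since the WT central libraries enter both this comparison and that between WT compartments, the 2 values are not independent. The change of the compartment difference with genotype, 1.07 (SE 0.65), had an adjusted p of 0.777 in edgeR, so that a difference between the genotypes in this respect was not shown. Averaged over genotypes, Cat was lower in endosteal HSCs by 0.71 on the log2 scale (SE 0.32, edgeR, adjusted p = 0.438), a direction lost with spike-in scaling (0.07 relative to the median of all genes).

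Gpx1 encodes the abundant cytosolic and mitochondrial glutathione peroxidase (ENSMUSG00000063856, chr9:108338903-108340343, plus strand). Gpx1 was at 1686, 1215, 762 and 1160.2 CPM in WT endosteal HSCs (1206 ± 378, n = 4) and at 692, 1031, 948 and 752 CPM in WT central HSCs (855 ± 160.1, n = 4). WT endosteal HSCs had the highest mean, but library C lay within the central range (log2 fold change 0.48, SE 0.26, edgeR, adjusted p = 0.671), and the ratio was 0.46 and 0.63 on the log2 scale within the libraries rich and poor in spike-in RNA. It was 905, 957, 1034 and 949.8 CPM in Gfra2-/- endosteal (961 ± 53.5, n = 4) and 828, 931 and 1296 CPM in Gfra2-/- central HSCs (1018 ± 246, n = 3), without a difference beyond its SE. The difference between genotypes in endosteal HSCs was -0.32 (SE 0.23), with overlapping groups. The change of the compartment difference with genotype, -0.58 (SE 0.34), had the smallest p of the 10 members (edgeR, adjusted p = 0.771).

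Gpx4 encodes the glutathione peroxidase that reduces lipid peroxides in membranes and thereby guards against ferroptosis (ENSMUSG00000075706, chr10:80047166-80056439, plus strand). Gpx4 was at 38.5, 35.7, 37.2 and 48.8 CPM in WT endosteal HSCs (40.1 ± 5.97, n = 4) and at 27.2, 14.3, 85.8 and 32.0 CPM in WT central HSCs (39.8 ± 31.6, n = 4). It was at 38.83, 37.1, 17.7 and 24.5 CPM in Gfra2-/- endosteal (29.5 ± 10.1, n = 4) and at 25.2, 22.2 and 24.7 CPM in Gfra2-/- central HSCs (24.0 ± 1.61, n = 3). In the 4 pairwise comparisons all groups overlapped and no difference exceeded its SE, while averaged over compartments the difference between the genotypes was -0.58 (SE 0.45). Reads of Gpx4 are hard to place: 61.7% of the 50-base windows of its transcript also occur in transcripts of 2 other genes, the largest share among the members, and its level is uncertain for that reason.

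Prdx2, a cytosolic peroxiredoxin that is abundant in red cells and is recharged by thioredoxin, lies at chr8:84969587-84974834 on the plus strand (ENSMUSG00000005161). Prdx2 was at 518, 613, 626 and 356 CPM in WT central HSCs (528 ± 124, n = 4) and at 175, 222 and 313 CPM in Gfra2-/- central HSCs (237 ± 70.6, n = 3). All 3 Gfra2-/- central values lay below the lowest WT central value, and the gap between 313 and 356 CPM was between the 2 libraries poor in spike-in RNA. The ratio of the means was -1.56 on the log2 scale within the libraries rich in spike-in RNA and -0.18 in the single pair poor in it, which includes the WT library with the most neutrophil and myeloid marker RNA. Without that WT library the difference was -1.34 in place of -1.18, and without WT central C, the highest in Prdx2 and in Lyz2 RNA, it was -1.09 (edgeR, adjusted p = 0.4). The part of these markers was not tested. With all libraries and spike-in scaling the central difference was 1.06 (SE 1.56) as fitted, where the median over all genes was 1.75. Relative to that median it was -0.69, so the lower level is relative to other transcripts. The 95% interval of the difference in all 7 libraries was -1.91 to -0.45.

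In endosteal HSCs, Prdx2 was at 569, 289, 209 and 393 CPM in WT libraries (365 ± 156, n = 4) and at 224, 219, 225 and 319 CPM in Gfra2-/- libraries (247 ± 47.9, n = 4). The Gfra2-/- values lay close together except for library D, the one with the most erythroid marker RNA, and the groups overlapped (log2 fold change -0.56, SE 0.32, edgeR, adjusted p = 0.784). Without WT endosteal A the difference was -0.28. The ratio of the means was -0.67 on the log2 scale within the libraries rich in spike-in RNA and -0.30 in the pair poor in it. These 2 comparisons between the genotypes share no library, though whether they share mice is not given. Averaged over compartments, in a fit of all 15 libraries, Prdx2 was lower in Gfra2-/- HSCs by 0.86 on the log2 scale (SE 0.23, edgeR, adjusted p = 0.122), just short of the threshold of 0.1. DESeq2 gave -0.91 with an adjusted p of 0.0114, and edgeR passed the threshold with at least 10 counts in every library (adjusted p = 0.0779) and with counts thinned to the smallest library (adjusted p = 0.089). In edgeR the adjusted p was 0.267 in the libraries past the quality cut-offs, 0.259 in those rich in spike-in RNA and 0.275 without the libraries whose Gfra2 counts go against the label. With spike-in scaling the averaged difference was 0.21 (SE 0.92) as fitted, where the median over all genes was 0.80, and -0.59 relative to that median. Between compartments Prdx2 was lower in WT endosteal than in WT central HSCs by 0.55 (SE 0.34), with overlapping groups, and it differed by less than its SE in Gfra2-/- HSCs.

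Of the Prdx2 exons, 11.5% overlap Rnaseh2a or Junb on the opposite strand, and strand was not used in counting. Reads on exons of 2 genes can be set aside as ambiguous and so be lost to Prdx2. Over all genes this category held 5.87% (Gfra2-/- endosteal B) to 17% (WT central D) of the reads aligned once. Junb was at 9.39 to 40.8 CPM in WT central and 1.67 to 22.8 CPM in Gfra2-/- central libraries, and Rnaseh2a at 9.96 to 149 and 39.8 to 128 CPM. Neither differed beyond its SE between the genotypes in central HSCs, while in endosteal HSCs Rnaseh2a differed by -0.99 (SE 0.46, edgeR, adjusted p = 0.741). The pseudogenes Tdpx-ps1 and Prdx2-rs3 held 1.89% to 8.96% of the counts of Prdx2 and themselves, and with these added the central difference was -1.12.

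**Figure D2:**
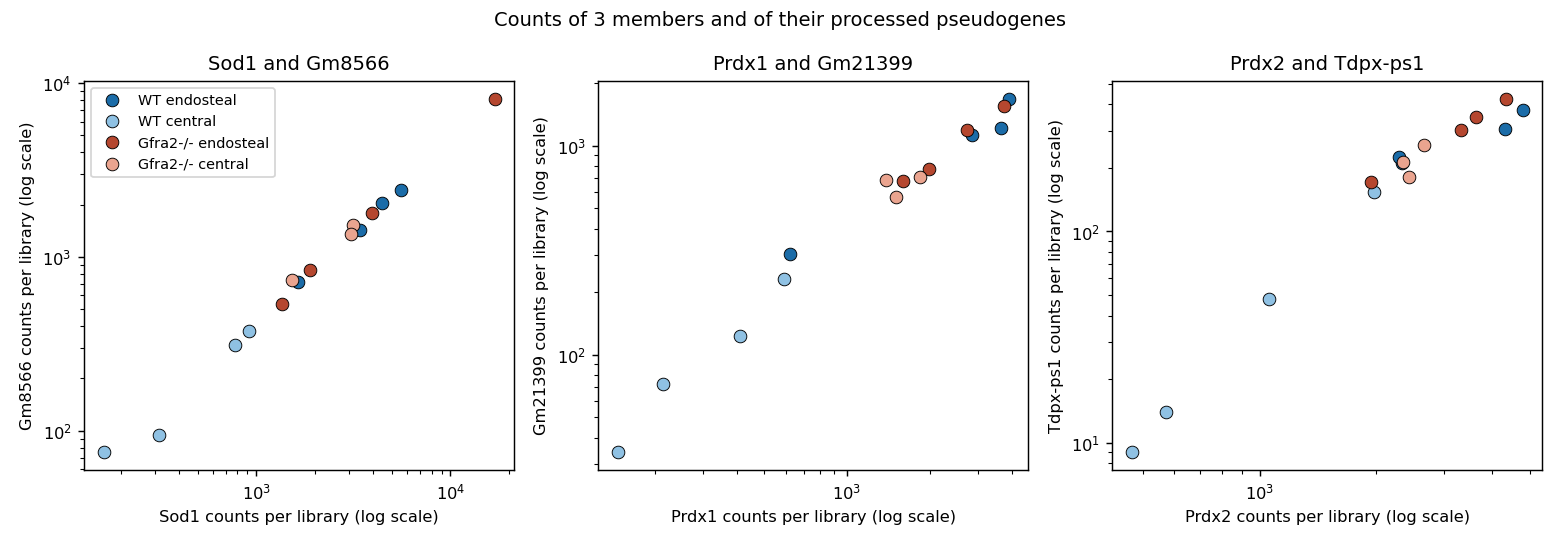
Counts per library of Sod1, Prdx1 and Prdx2 (x axes, log scale) against those of the processed pseudogenes Gm8566, Gm21399 and Tdpx-ps1 (y axes, log scale). Each point is 1 of 15 libraries, coloured by group, and depth contributes to both axes. The highest Sod1 library, Gfra2-/- endosteal B, is also the highest for Gm8566, with 8122 counts.

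Prdx1, the other main cytosolic peroxiredoxin and an NRF2 target, lies at chr4:116685544-116700822 on the plus strand (ENSMUSG00000028691). Prdx1 was at 151, 259, 259 and 296 CPM in WT endosteal HSCs (241 ± 62.5, n = 4) and at 194, 127, 197 and 199.9 CPM in WT central HSCs (179 ± 35.0, n = 4). It was at 135, 188, 186 and 239 CPM in Gfra2-/- endosteal (187 ± 42.4, n = 4) and at 91.0, 174 and 194 CPM in Gfra2-/- central HSCs (153 ± 54.6, n = 3). Every pair of groups overlapped. The WT endosteal mean was the highest, with a log2 fold change of 0.40 (SE 0.34) for WT endosteal against WT central and of -0.36 (SE 0.29) for Gfra2-/- against WT endosteal HSCs. Of the windows in its coding sequence 44.3% occur in other transcripts, and the pseudogenes Gm21399 and Gm7204 held 18.8% to 33.2% of the joint counts. As for Sod1, the gene most like Prdx1 over the 15 libraries was such a pseudogene, Gm21399 (r = 0.819).

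Prdx3 is the peroxiredoxin of the mitochondrial matrix (ENSMUSG00000024997, chr19:60864051-60874556, minus strand). Prdx3 was at 54.6, 87.4, 256 and 147 CPM in WT endosteal HSCs (136 ± 88.4, n = 4) and at 48.9, 318, 46.9 and 122 CPM in WT central HSCs (134 ± 128, n = 4). It was at 80.0, 98.9, 101 and 172 CPM in Gfra2-/- endosteal (113 ± 40.4, n = 4) and at 110.5, 65.5 and 95.3 CPM in Gfra2-/- central HSCs (90.4 ± 22.9, n = 3). The WT libraries of either compartment spanned the whole range of the Gfra2-/- libraries, and no difference exceeded its SE.

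Prdx5 acts in mitochondria, peroxisomes and the cytosol (ENSMUSG00000024953, chr19:6906697-6910106, minus strand). Prdx5 was at 371, 199, 93.0 and 88.4 CPM in WT endosteal HSCs (188 ± 132, n = 4) and at 31.7, 109, 236 and 160.4 CPM in WT central HSCs (134 ± 86.0, n = 4). It was at 109, 127, 61.7 and 104 CPM in Gfra2-/- endosteal (100.4 ± 27.7, n = 4) and at 71.6, 106 and 167 CPM in Gfra2-/- central HSCs (115 ± 48.5, n = 3). WT endosteal A and B lay above every Gfra2-/- endosteal library, and C and D within their range. The difference between the genotypes in endosteal HSCs was -0.90 (SE 0.48, edgeR, adjusted p = 0.757), with overlapping groups, and was -0.35 when WT endosteal A was left out. It was -1.15 within the libraries rich in spike-in RNA and 0.23 in the pair poor in it. Trmt112 overlaps 19.1% of the Prdx5 exons on the opposite strand, and it reached 20.1 CPM at most.

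Prdx6 draws its electrons from glutathione and also has phospholipase activity (ENSMUSG00000026701, chr1:161240112-161251219, minus strand). Prdx6 was at 1032, 911, 815 and 589.7 CPM in WT endosteal HSCs (837 ± 187, n = 4) and at 463, 766, 787 and 773 CPM in WT central HSCs (697 ± 157, n = 4). It was at 666, 638, 897 and 795 CPM in Gfra2-/- endosteal (749 ± 119.8, n = 4) and at 716, 786 and 583 CPM in Gfra2-/- central HSCs (695 ± 103, n = 3). In the 4 pairwise comparisons all groups overlapped and every difference was smaller than its SE, while averaged over genotypes the difference between compartments was 0.19 (SE 0.17). It had the narrowest range of the members, its highest library being 2.23-fold above the lowest. Between the genotypes its difference was -0.15 in endosteal HSCs (95% interval -0.65 to 0.34) and -0.03 in central HSCs (95% interval -0.62 to 0.56).

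**Figure D3:**
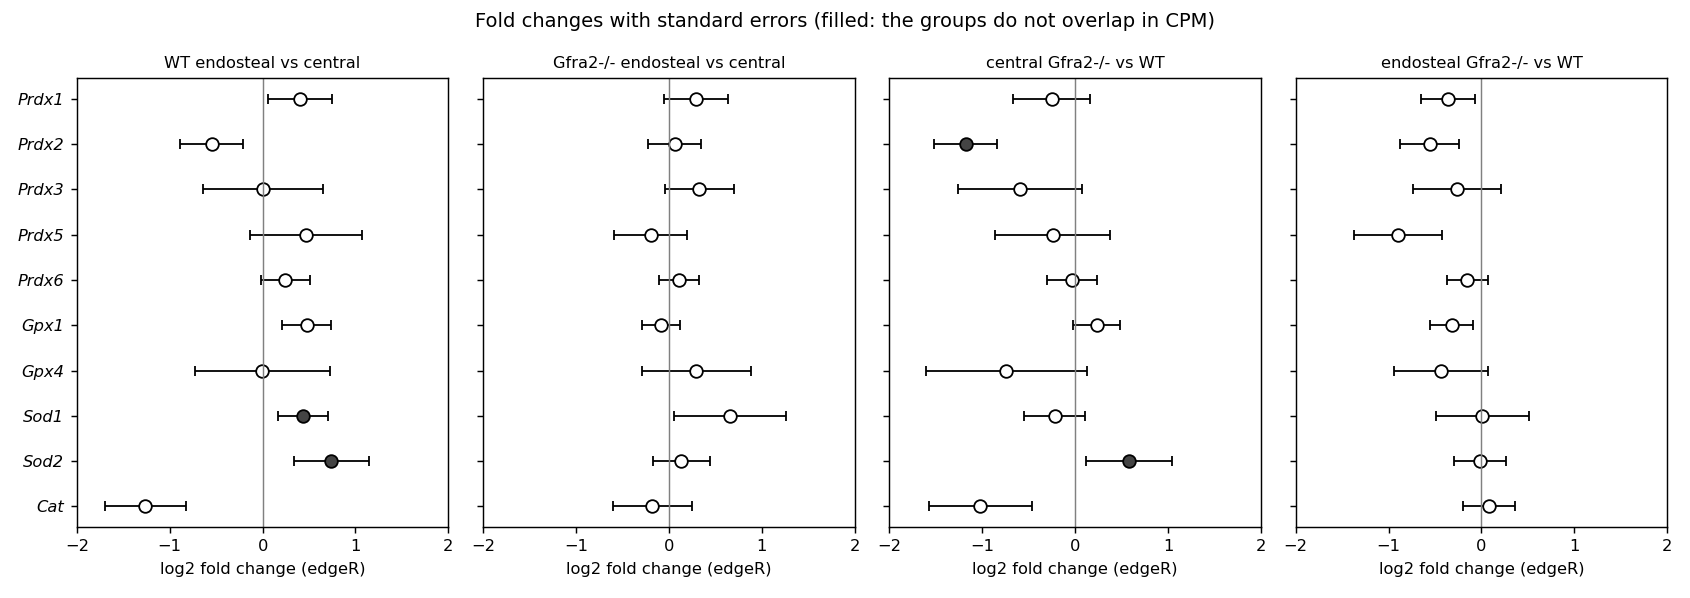
Log2 fold change (x axis, point) with its standard error (whisker) for the 10 members in the 4 pairwise comparisons. Filled points mark groups of libraries that do not overlap in CPM: Sod1 and Sod2 higher in WT endosteal HSCs, and Prdx2 lower and Sod2 higher in Gfra2-/- central HSCs.

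Between endosteal and central WT HSCs, 0 of the 10 members passed the false discovery rate, as did 0% of the 11181 genes tested, and only Cat had an unadjusted p under 0.05 in edgeR, against 7.89% of genes. DESeq2 passed 0 members and 4.49% of genes. The groups did not overlap for 2 members, Sod1 and Sod2, both higher in endosteal HSCs, against 4.27% of all genes in that direction, and the difference exceeded its SE for 6 members, against 40.1% of genes. The median log2 fold change was 0.32 over the members and 0.03 over all genes.

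Between endosteal and central Gfra2-/- HSCs, 0 members and 0% of 13860 genes passed. No member had an unadjusted p under 0.05, against 4.79% of genes, no member's groups stood apart, against 7.34%, and DESeq2 passed 0 members and 2.75% of genes. The median log2 fold change was 0.12 over the members and 0.03 over all genes. Only for Sod1, 1 of 10 members, did the difference exceed its SE, against 32.3% of genes. No member passed in the test of the change of the compartment difference with genotype, where 0% of genes passed, and none had an unadjusted p under 0.05, against 6.97% of genes. DESeq2 passed 0 members and 1.68% of genes there.

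Between Gfra2-/- and WT central HSCs, 0 members passed in edgeR, against 0.051% of 11772 genes, and only Prdx2 had an unadjusted p under 0.05, against 8.73% of genes. DESeq2 passed 1 member, Prdx2, and 5.14% of genes. The groups did not overlap for 2 members, Prdx2 lower (4.44% of all genes) and Sod2 higher (7.99%), and 3 members, these and Cat, differed by more than their SE, against 39.5% of genes. The median log2 fold change was -0.25 over the members and 0.03 over all genes. In endosteal HSCs 0 members and 0% of 12970 genes passed in edgeR. None of the members had an unadjusted p under 0.05 there, against 6.69% of genes, none had groups that stood apart, against 6.24%, and DESeq2 passed 0 members and 3.71% of genes. The difference exceeded its SE for 4 members, against 38.2% of genes, and the median was -0.29 over the members and 0.03 over all genes. Averaged over compartments, 0 members and 0.824% of 15416 genes passed in edgeR, and Prdx2 was the only member with an unadjusted p under 0.05, against 14.5% of genes, as it was the only one past the threshold in DESeq2, against 9.86%. Averaged over genotypes, 0 members and 0.0519% of genes passed, and Cat was the only member with an unadjusted p under 0.05, against 10.8%, while DESeq2 passed 0 members and 4.87% of genes.

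All 5 peroxiredoxins had a log2 fold change below 0 in both comparisons between the genotypes, as did 28% of the 11405 genes tested in both. Over all members 6 of 10 did, or 5 of 10 with a minimum of 10 counts in every library or with no filter on low counts. Of the 10 peroxiredoxin differences 4 exceeded their SE, that of Prdx2 in both compartments and those of Prdx1 and Prdx5 in endosteal HSCs. Over all genes 39.5% did so in central and 38.2% in endosteal HSCs, so the count of 4 is near the general share. The sign of Prdx6, whose differences were the smallest, turned in 1 of the comparisons with spike-in scaling relative to the median of all genes, with a minimum of 10 counts in every library, and with no filter on low counts. The ratios within the libraries rich in spike-in RNA and in the pair poor in it had opposite signs for several peroxiredoxins. In central HSCs these were Prdx5 (-0.50 and 0.06) and Prdx6 (0.16 and -0.41). In endosteal HSCs they were Prdx3 (-0.50 and 0.22), Prdx5 (-1.15 and 0.23) and Prdx6 (-0.32 and 0.43). With DESeq2 size factors and all libraries the 5 peroxiredoxins kept their sign. Spike-in scaling put the median over all genes at 1.75 in central and -0.28 in endosteal HSCs, so that these directions are relative to other transcripts and not per cell.

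The other members of these families were mostly silent. Gpx2, Gpx5 and Gpx6 had 0 counts in all 15 libraries, and Sod3, the extracellular superoxide dismutase, had at most 1 count. Gpx3 and Gpx8 were at 0 in 10 and 9 libraries. Prdx4, the peroxiredoxin of the endoplasmic reticulum, was present in all libraries, at 40.7 to 443.8 CPM. Gpx7, another enzyme of the endoplasmic reticulum, was at 32.2, 28.6, 14.7 and 45.6 CPM in WT endosteal HSCs and at 1.81, 3.42, 0 and 0.674 CPM in WT central HSCs. These Gpx7 groups did not overlap, against 4.27% of all genes higher in endosteal HSCs. The difference was 4.22 (SE 1.16, edgeR, adjusted p = 0.42), the smallest p in this comparison among the related genes listed below. Gpx7 was at 3.72, 13.2, 0 and 28.0 CPM in Gfra2-/- endosteal and at 0, 39.2 and 3.60 CPM in Gfra2-/- central HSCs. Those groups overlapped, with a difference of -0.35 (SE 2.05).

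The list of 55 related genes held these 8 family members, the thioredoxin and glutathione systems, NRF2 with its regulators and targets, the supply of copper and selenium, and the NADPH oxidase. Between WT compartments 47 could be tested, and 0 passed in edgeR, while 1 had an unadjusted p under 0.05 and was higher in endosteal HSCs. Between Gfra2-/- compartments 0 of 47 passed (2 higher and 1 lower at the unadjusted p). Between the genotypes 0 of 48 passed in central HSCs (2 higher, 2 lower) and 0 of 47 in endosteal HSCs (0 higher, 2 lower). Over all genes the unadjusted p in edgeR was under 0.05 for 7.89% between WT compartments and 4.79% between Gfra2-/- compartments. Between the genotypes it was so for 8.73% in central and 6.69% in endosteal HSCs. The median log2 fold change over the list was 0.05, -0.17, 0.05 and -0.03 in these comparisons, beside 0.03 over all genes in each.

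Txn1, the cytosolic thioredoxin that reduces Prdx1 and Prdx2, had the smallest p of the list in both comparisons between the genotypes. Txn1 was at 556, 498, 787 and 331 CPM in WT central HSCs (543 ± 189, n = 4) and at 146, 313 and 256 CPM in Gfra2-/- central HSCs (238 ± 84.5, n = 3). In endosteal HSCs Txn1 was at 424, 387, 348 and 407 CPM in WT (391 ± 32.7, n = 4) and at 272, 227, 217 and 154 CPM in Gfra2-/- libraries (218 ± 48.9, n = 4). The groups did not overlap in either compartment, against 4.44% of all genes lower in central and 6.24% in either direction in endosteal HSCs. The highest WT central value was that of library C, the one with the most Lyz2 RNA. The log2 fold change was -1.21 in central HSCs (SE 0.38, edgeR, adjusted p = 0.36) and -0.84 in endosteal HSCs (SE 0.23, edgeR, adjusted p = 0.645). Prdx2 and its reductant both had lower means in Gfra2-/- HSCs of either compartment, and neither passed the adjusted threshold in edgeR in these comparisons. Txn1 was named for its p in these same comparisons, so this likeness is only a description. Among WT central libraries both genes were highest in C and lowest in D. Of the 7 thioredoxin genes of the list, 4 were lower and 3 higher in central HSCs, and 5 lower and 2 higher in endosteal HSCs.

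Among the other genes named by the smallest p, Gclm, the modifier subunit of the enzyme that starts glutathione synthesis, was at 152, 145, 190.0 and 259 CPM in Gfra2-/- endosteal and at 42.8, 72.4 and 44.2 CPM in Gfra2-/- central HSCs. These groups did not overlap (1.81, SE 0.36, edgeR, adjusted p = 0.805), against 7.34% of all genes in either direction. Between WT compartments Gclm differed by 0.05 (SE 0.61), with means of 115 CPM in endosteal and 109 CPM in central HSCs. Between Gfra2-/- compartments the mitochondrial glutaredoxin Glrx2 differed by 1.12 (SE 0.46) and Prdx4 by -0.93 (SE 0.35). Prdx4 differed by -0.93 (SE 0.32) also between Gfra2-/- and WT endosteal HSCs, and since both comparisons use the Gfra2-/- endosteal libraries they are not independent. The ferritin heavy chain Fth1 differed by -0.35 (SE 0.16) there. In central HSCs the glutaredoxin Glrx5 differed by -1.73 (SE 0.69) and Sephs2, which makes the selenium donor for selenoproteins such as Gpx1 and Gpx4, by 3.20 (SE 1.41) between Gfra2-/- and WT, with 0 counts in 2 WT central libraries. Between WT compartments Gsto1, a glutathione transferase, differed by 0.86 (SE 0.41) and the NADPH oxidase subunit Ncf1 by -3.17 (SE 1.5), with levels of 0 to 44.2 CPM in these 8 libraries.

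**Figure D4:**
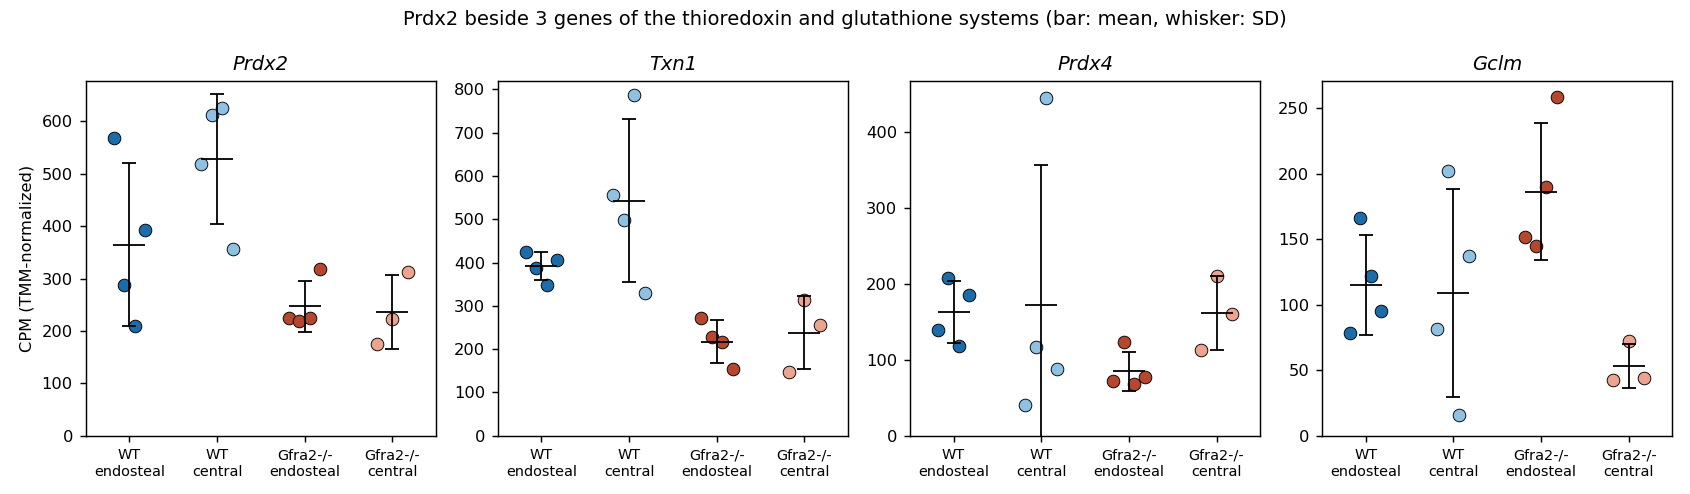
Level in CPM (y axis, linear, from 0) of Prdx2, Txn1, Prdx4 and Gclm in the 15 libraries, by group (x axis). Each point is 1 library, the bar the mean and the whisker 1 SD. The Txn1 values of Gfra2-/- HSCs lie below those of WT HSCs of the same compartment, and the Gclm values of Gfra2-/- central HSCs lie below those of Gfra2-/- endosteal HSCs.

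The members did not move together from library to library. Over the 15 libraries, which share their groups and differ in depth, the Pearson correlation of log2(CPM + 1) was above 0 in 25 of 45 pairs of members, with a median of 0.06. The highest was 0.66 between Prdx5 and Gpx1, and the lowest -0.55 between Prdx2 and Sod2. The gene most like Prdx2 was Cuta (r = 0.937), that most like Prdx5 was Pigyl (0.903) and that most like Prdx6 was Abhd14a (0.902). For Gpx4 it was Mrps18c (0.863), for Sod2 Carm1 (0.852), for Gpx1 Topors (0.851), for Cat Tmem47 (0.847) and for Prdx3 Gm13349 (0.842). Each is the highest of 15416 genes over 15 libraries and is given as a description.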

How the data were processed

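The authors aligned single-end reads of the Smart-seq2 libraries to mouse GRCm38 (mm10) with GSNAP, keeping 1 path per read, and counted reads per gene with htseq-count (HTSeq 0.5.3p3) without regard to strand. They deposited raw counts, of which the 46078 genes were used here, while 92 spike-in RNAs and 5 htseq-count categories stayed out of all totals and tests. Columns were assigned to groups by the study's sample list, which carries no replicate numbers, and 1 column of per-sample values was not mapped and not used. Reads are PCR copies without molecular identifiers, so depth covers counting error only.

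Each comparison was fitted over all genes with edgeR 4.0.16 (R 4.3.3): filterByExpr, TMM, the quasi-likelihood test and Benjamini-Hochberg adjustment, at a false discovery rate of 0.1, on the groups compared only, and on all 15 libraries for averaged and interaction contrasts. DESeq2 1.42.0, which the study used, was an alternative. The script was tested on simulated data. The SE is that of the log2 fold change, and 95% intervals use it with the t distribution at edgeR's degrees of freedom. Symbols and gene positions came from GENCODE M21 (45143 genes matched). Levels per kilobase used the union of exons. For the windows shared between genes, each transcript was cut into all its 50-base stretches.

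The members and lists were chosen with earlier results of these data known. Named are all members, the 3 genes of the related list with the smallest p in each pairwise comparison, and for each member the gene most like it. Alternatives were other size factors (DESeq2, spike-in), other filters on low counts, thinning, an FDR of 0.05, libraries past the quality cut-offs, libraries rich in spike-in RNA, a batch term, a joint fit and each library left out. Omitting the libraries whose Gfra2 counts go against the label, and adding pseudogene counts, were chosen after seeing the data.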

Additional observations from a re-analysis of the deposited data

Results flagged for a closer look

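Within groups of 4 libraries, 30 groups of member values were tested for a library far from the others by Dixon's ratio, of which chance alone marks about 1 in 20, and 3 were marked. Prdx2 was highest in Gfra2-/- endosteal D, at 318.6 CPM, against 219 to 225 CPM in the other libraries of that group (ratio 0.941). That library also held 680.3 CPM of summed erythroid markers and 1799 CPM of B-cell markers, and their part in the Prdx2 value was not tested. Prdx1 was lowest in WT central B, at 127.2 CPM, against 194 to 199.9 CPM in the others (ratio 0.916). Prdx6 was lowest in WT central A, at 462.6 CPM, against 766 to 787 CPM in the others (ratio 0.935), and this library fell below the study's quality cut-offs.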

How the results depend on the processing

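The count of members past the threshold stayed at 0 under every alternative between compartments, in the interaction and between the genotypes in endosteal HSCs. Between the genotypes in central HSCs it became 1, Prdx2, with DESeq2 (-1.27, adjusted p = 0.0949). Averaged over compartments it became 1, again Prdx2, with DESeq2 (-0.91), with at least 10 counts in every library (-0.73) and with thinning (-0.90). With each library left out the count ranged from 0 to 1 and the Prdx2 value from -0.96 to -0.71, and Prdx2 passed without WT endosteal C (-0.96, adjusted p = 0.0791) or without WT central D (-0.94, adjusted p = 0.0948). Without the libraries whose Gfra2 counts go against the label it was -0.90 with an adjusted p of 0.275, from 13 libraries. The Sod1 difference between Gfra2-/- compartments ranged from -0.19, without Gfra2-/- endosteal B, to 0.94. Spike-in scaling as fitted turned the sign of Prdx2 between the genotypes, to 1.06 in central HSCs and 0.21 averaged over compartments. Taken relative to the median of all genes, spike-in scaling turned Cat between compartments to 0.073. It also moved the summed CPM of the members, which was 3653 in WT endosteal, 3251 in WT central, 3036 in Gfra2-/- endosteal and 2855 in Gfra2-/- central HSCs, to 7404, 2352, 5352 and 7164. Of 10 ranks per kilobase, 5 were kept with the longest transcript and 2 with coding length. The cause of these shifts was not tested. No paired analysis was possible because the columns carry no replicate numbers. Depth was least in WT central libraries, and with 3 or 4 libraries in a group the 95% interval of a difference was as wide as -2.63 to 1.15 (Gpx4, central).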
